A study of Homo sapiens with 12 samples.

Results

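MYC and 41 genes for the making of ribosomes were followed in Hs 578T cells that overexpressed GFP or NRF2 and grew with or without cystine (Cyss). The 42 genes were taken by symbol from a list of MYC, RNA polymerase I and rRNA processing factors, and the list was drawn up with earlier results of these data known. All 42 were found among the 55765 gene symbols of the count tables. They fell into MYC itself and 5 roles, namely RNA polymerase I transcription (7 genes), abundant nucleolar proteins (7 genes), proteins of small nucleolar ribonucleoproteins or snoRNPs (6 genes), processing of the small ribosomal subunit (13 genes) and processing of the large subunit (8 genes).

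Ribosomes are assembled in the nucleolus, where RNA polymerase I transcribes a long precursor rRNA that is modified by snoRNPs, cut and folded together with ribosomal proteins by assembly factors, and exported as small and large subunits. MYC is a transcription factor that pairs with MAX on the E-box CACGTG and is known for raising the genes of this pathway together in growing and tumour cells. Making ribosomes uses a large part of a growing cell's amino acids and energy, and in general the pathway is slowed when nutrients run short.

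Hs 578T is a triple-negative breast cancer (TNBC) line that the labels describe as epithelial. Cells transduced with lentiviral vectors for NRF2 or, as control, for GFP were kept for 8 h with 0.8 mM cystine or with none added, in medium that in every group held 0.2 mM methionine, 2 mM glutamine and serum. The 4 groups, GFP cells with Cyss, GFP cells without Cyss, NRF2 cells with Cyss and NRF2 cells without Cyss, had 3 libraries each, made from total RNA by an mRNA-seq kit and sequenced single end. All groups came from a single line and were transduced, and the share of cells that took up a vector is not stated. Nothing in the labels says that the replicates were separate cultures, so p-values measure the spread between these libraries, which may be technical.

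Reads on genes ranged from 27334061 to 44734611 per library, and the 42 genes together took between 0.511 and 0.571% of them. NFE2L2, the gene of NRF2, had, with Cyss, 3647 to 3842 normalized counts in the GFP cells and 6598 to 6940.4 in the NRF2 cells, so the labels of the vectors held in these libraries, although counts of the added and the cell's own transcripts cannot be told apart. The epithelial markers EPCAM and KRT19 were at 0 to 3 normalized counts in every library and CDH1 at 3 to 14, whereas KRT8 ranged from 151 to 233 and KRT18 from 773 to 1473. The mesenchymal markers VIM, CDH2, FN1, ZEB1 and AXL were high, with ZEB1 lowest at 7152 to 9385. Of the 5 epithelial markers, EPCAM, KRT19 and CDH1 were thus at or near 0, and KRT8 and KRT18 were detected. In a principal component analysis of all libraries, GFP cells without Cyss replicate 3 lay at 4.81 on the first component while the other 2 libraries of its group lay at -6.91 and -4.21, toward the NRF2 cells without Cyss at 19.6 to 21.7. That library was also the highest of its group for 38 of the 42 genes, a count not made over all genes, so the counts and calls that rest on it are also given without it. NRF2 cells without Cyss replicate 1 stood apart as well, at 7.67 on the second component against 1.29 and -0.998 for its group, with 7.84% of reads on no gene against 6.25 to 6.30%. Counts were scaled by edgeR's TMM method, and the values per library below are normalized counts over all 12 libraries. In bulk RNA a lower share of cells that express a gene and less of its RNA per cell cannot be told apart.

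All 42 genes were expressed well above the minimum of 10 normalized counts. On the scale of normalized counts per kb of exon, the only scale on which genes are compared here, NCL (nucleolin) was highest at 4286 as a mean over the 12 libraries, followed by GNL3 (nucleostemin, a nucleolar GTPase) at 2256 and RRS1 (which brings the 5S RNA into the large subunit) at 2148. The lowest were PPAN, a large subunit factor, at 90.7 and BOP1, a partner of PES1, at 144. MYC stood at 519. On hg19 in the GENCODE 44 annotation, MYC lies at chr8:128747680-128755197 and RRS1 at chr8:67341249-67342968, DDX21 at chr10:70715891-70744824 and RRP12 at chr10:99116115-99185833. WDR43 lies at chr2:29117533-29171085, LYAR at chr4:4269428-4291881, UTP20 at chr12:101673883-101780396 and UBTF at chr17:42282401-42298994, and counts for each gene cover its exons. Libraries of a group lay close together, with a median coefficient of variation of 3.66% over genes and groups and a maximum of 12.03%, for LYAR in GFP cells without Cyss. The mean was highest in NRF2 cells without Cyss for 27 of the 42 genes and lowest in NRF2 cells with Cyss for 27. It was highest in NRF2 cells with Cyss for none of them. These orders were not counted over all genes, so they cannot be called particular to the members.

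The first comparison asked what 8 h without Cyss did to these genes in GFP cells. None of the 42 was a DEG, defined as a gene with an adjusted p under 0.1 from the quasi-likelihood test of edgeR and a log2FC above 0.32 in size. Over all 17452 genes tested, 1.57% were DEGs in the higher direction and 0.533% in the lower. Without the threshold on fold, 1 member was higher, MYC, and none was lower, beside 3.11 and 2.81% of all genes. At an unadjusted p under 0.05 the members numbered 6 higher and 1 lower, beside 8.51 and 9.59% of all genes, and DESeq2 also called 0 of them. The median log2FC of the members was 0.03, against 0.00 for all genes tested, with 31 values above 0 and 11 below. Without GFP cells without Cyss replicate 3 the lean was not kept, with 17 above 0 and 25 below and a median of -0.01.

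MYC had 2459, 2544 and 2456 normalized counts in the 3 GFP libraries with Cyss and 2773, 3092 and 3372 in those without. The 2 groups did not overlap, the lowest library without Cyss being above the highest with it. The log2FC was 0.31 (SE, the standard error, 0.0590, adjusted p = 0.0118 from edgeR), just short of the fold threshold, and the exact two-sided permutation test on the 3 against 3 values gave p = 0.1, the smallest this design allows. Without GFP cells without Cyss replicate 3, the highest of these libraries, the log2FC was 0.24 (adjusted p = 0.0337), whereas MYC became a DEG at 0.32 without GFP cells with Cyss replicate 2 and at 0.38 without GFP cells without Cyss replicate 1.

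The roles stayed close to 0 in GFP cells. Of the 7 RNA polymerase I genes none passed the test, from POLR1B, the second-largest subunit of the enzyme, at a log2FC of 0.02 to UBTF, the factor that keeps rRNA genes open, at -0.09. The abundant nucleolar proteins lay between -0.01 for NOLC1 and 0.16 for LYAR. All 6 snoRNP genes had values above 0, from 0.01 for NOP56 to 0.12 for NOP58, both core proteins of the box C/D particles that guide methylation, and none passed. Without GFP cells without Cyss replicate 3, all 7 RNA polymerase I genes, 1 of the 6 snoRNP genes (NOP56, -0.02), 8 of the 13 small subunit genes and 7 of the 8 large subunit genes lay below 0. In the small subunit group, with all libraries, the values ran from -0.12 for UTP20 to 0.20 for RRP12, a factor for the export of subunits (adjusted p = 0.111), and in the large subunit group from -0.08 for WDR12 to 0.03 for PES1, which form a complex together with BOP1. Without that replicate UTP20 passed the test in the lower direction (log2FC -0.16, adjusted p = 0.0792), without reaching the fold threshold.

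**Figure D1:**
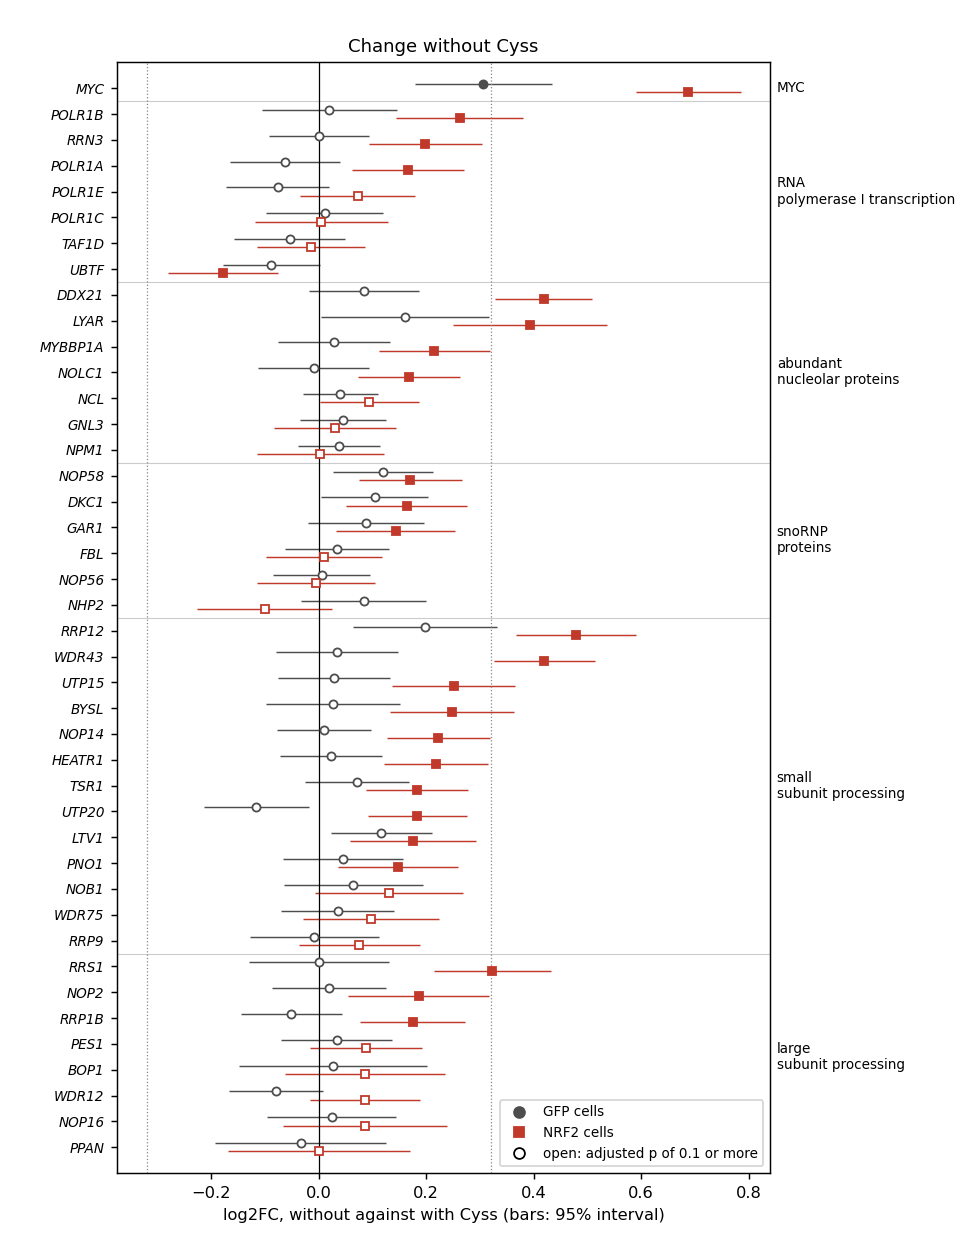
Change of each of the 42 genes without Cyss (log2FC, horizontal axis) in GFP cells (grey circles) and NRF2 cells (red squares), with 95% intervals as bars, grouped by role, and dotted lines at -0.32 and 0.32. Filled marks had an adjusted p under 0.1, which holds for 1 gene in GFP cells and for 25 in NRF2 cells, of which UBTF alone lay below 0.

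The second comparison asked the same of cells with added NRF2. Here 6 of the 42 genes were DEGs, all higher without Cyss (MYC, RRP12, WDR43, DDX21, LYAR and RRS1), beside 6.81% of all 17266 genes tested called higher and 5.14% lower. Without the threshold on fold, 24 members were higher and 1 was lower, beside 15.2 and 13.8% of all genes. The median log2FC was 0.16, against -0.01 for all genes, with 37 members above 0 and 5 below. Without NRF2 cells without Cyss replicate 1, the counts were 6 DEGs and, at any fold, 30 higher and 1 lower. The shares of all genes in that fit were not counted. The split of all DEGs depended on scaling, with 57.004% of them higher under TMM, 48.2% with upper quartile scaling and 40.1% with library size only. The median of the members minus that of all genes was 0.18 under each of these 3 scalings. Among the cell markers, KRT18 (log2FC 0.66), ZEB1 (0.37) and AXL (0.33) were also DEGs without Cyss in NRF2 cells, and their part in the members' values was not tested.

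MYC had 2726, 2728 and 2729 normalized counts in NRF2 cells with Cyss and 4257, 4364 and 4572 without. The groups were far apart, and every library without Cyss exceeded all the others of the study. The means were 2728 ± 1.3 and 4397 ± 160.45 (SD, n = 3 each). The log2FC was 0.69 (SE 0.0456, adjusted p = 6.49e-08 from edgeR), the largest among the 42 genes, with an exact two-sided permutation p = 0.1. It lay between 0.66 and 0.71 when single libraries were left out.

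DDX21, an RNA helicase that acts in both transcription and processing of rRNA, had 13015, 13172 and 12828 normalized counts with Cyss and 16942, 17813 and 17449.7 without. WDR43, which belongs to the part of the small subunit processome that also acts in rRNA transcription, had 3015, 3076 and 3078 with Cyss and 3999, 4199 and 4082 without. In both genes the 2 groups were clearly separated. DDX21 rose by 0.42 in log2FC (SE 0.0419, edgeR adjusted p = 4.21e-06) and WDR43 also by 0.42 (SE 0.0441, adjusted p = 6.89e-06).

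RRP12 had 1639, 1494 and 1565 normalized counts with Cyss and 2139, 2135 and 2276 without. RRS1 had 3555, 3349.8 and 3400.0 with Cyss and 4066, 4294 and 4544 without. Again no library of either gene crossed into the other group. RRP12 rose by 0.48 in log2FC (SE 0.0524, edgeR adjusted p = 1.03e-05). RRS1 rose by 0.32 (SE 0.0506, adjusted p = 0.000314), a hair above the fold threshold, and was no longer a DEG in 3 of the 6 fits with a library left out, at 0.28 without NRF2 cells without Cyss replicate 3 and at 0.31 without NRF2 cells with Cyss replicate 2 or 3. LYAR, a nucleolar zinc finger protein, rose by 0.39 (SE 0.0672, adjusted p = 0.000658).

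**Figure D2:**
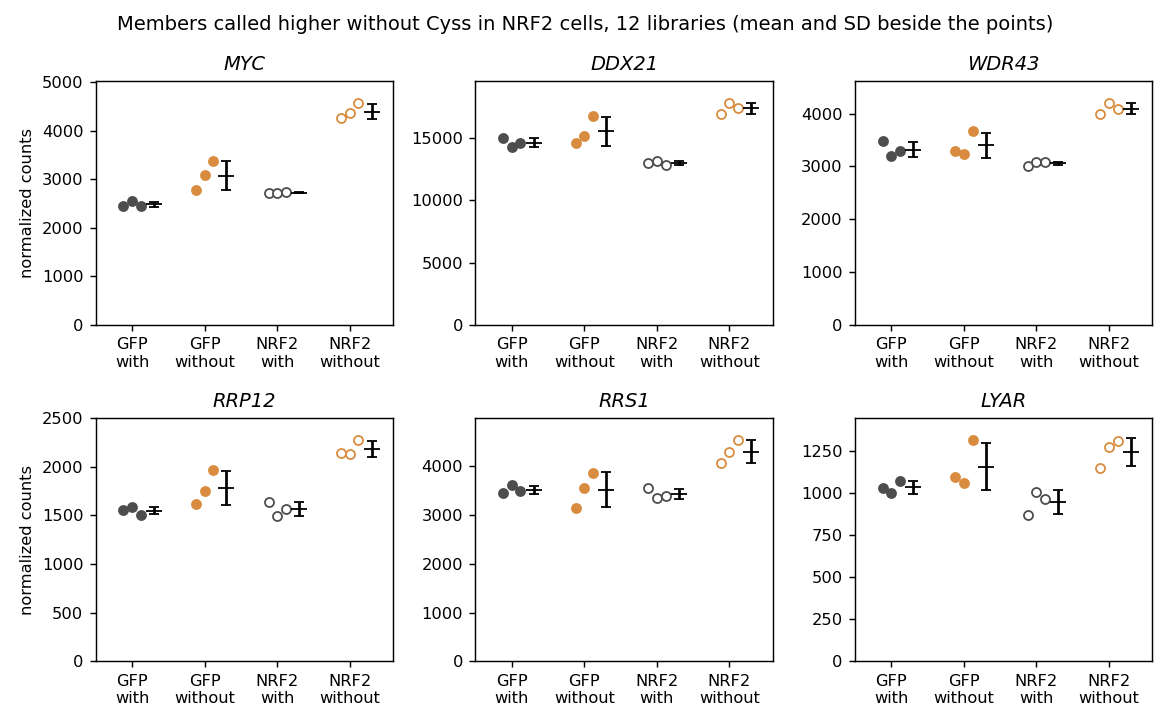
Normalized counts (vertical axes, from 0) of the 6 DEGs among the 42 genes in NRF2 cells, in each of the 12 libraries, as filled points for GFP cells and open points for NRF2 cells, grey with Cyss and orange without, with the mean and SD of the 3 libraries beside them. The 3 NRF2 libraries without Cyss were the highest for MYC (4257 to 4572), and GFP cells without Cyss replicate 3 was the highest of its group in all 6 panels.

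By role, 3 of the 7 RNA polymerase I genes were higher at any fold in NRF2 cells without Cyss. These were POLR1B (log2FC 0.26), RRN3, which brings the polymerase to its promoter (0.20), and POLR1A, its largest subunit (0.17). POLR1A lost its call without NRF2 cells with Cyss replicate 3. UBTF was the single member that fell (log2FC -0.18, SE 0.0482, edgeR adjusted p = 0.0159). It had 3884, 4088 and 4117 normalized counts with Cyss and 3718.5, 3551 and 3429 without, with no overlap. POLR1E, POLR1C and TAF1D, the last a subunit of the promoter selectivity factor, were at 0.07, 0.00 and -0.01.

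Of the 7 abundant nucleolar proteins, 4 were higher at any fold. Beside DDX21 and LYAR these were MYBBP1A (0.21), a nucleolar protein first found as a partner of MYB, and NOLC1 (0.17), a chaperone of snoRNPs. NCL had a log2FC of 0.09 (adjusted p = 0.139), GNL3 one of 0.03 and NPM1 (nucleophosmin) one of 0.00, and none of these passed the test. The 95% interval for NPM1 ran from -0.12 to 0.12. NPM1 has many processed pseudogenes, and reads shared with them may have been lost in counting.

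Among the 6 snoRNP genes, 3 were higher, NOP58 (0.17), DKC1, the pseudouridine synthase of the box H/ACA particles (0.16), and GAR1, its partner (0.14). The calls were not firm, since GAR1 kept its call in 2 of the 6 fits with a library left out and DKC1 in 4. NHP2, a further H/ACA protein, was the lowest of the group at -0.10 (adjusted p = 0.250). FBL, the methyltransferase of the C/D particles, and NOP56 were at 0.01 and -0.01.

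All 13 small subunit genes had values above 0 and 10 of them were higher at any fold, from RRP12 at 0.48 to RRP9, a protein of the U3 snoRNP, at 0.08, which with NOB1 and WDR75 did not pass. UTP15, like WDR43 and HEATR1 in the subcomplex that joins the precursor first, had 0.25, BYSL 0.25, NOP14 0.22 and HEATR1 0.22. The factors of late cytoplasmic maturation were at 0.18 for TSR1, 0.18 for LTV1, 0.15 for PNO1 and 0.13 for NOB1, the nuclease of the last cut (adjusted p = 0.166). PNO1 kept its call in 2 of the 6 fits with a library left out and LTV1 in 4.

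Of the 8 large subunit genes, 3 were higher at any fold, RRS1, NOP2, an rRNA methyltransferase (0.19), and RRP1B (0.17). The group ran down to PPAN at 0.00. The partners PES1, BOP1 and WDR12 were at 0.09, 0.09 and 0.09, and none passed. NOP2 kept its call in 2 of the 6 fits with a library left out, and 54.4% of its exon bases also lie in other annotated genes, as do 49.2% of those of PPAN.

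Whether the response differed between the cells was tested as an interaction over all 12 libraries, with an adjusted p under 0.1 and no threshold on fold. The log2FC without Cyss was higher in NRF2 than in GFP cells for 15 of the 42 genes and lower for none, beside 8.97 and 6.13% of all 17674 genes tested. The median difference was 0.11 on the log2 scale, against -0.01 for all genes, with 35 members above 0 and 7 below. Of all calls, 59.4% were in the higher direction under TMM, 40.5% with upper quartile scaling and 36.2% with library size only. Under library size only, 8 members were called higher and 1 lower, beside 1124 and 1981 of all genes. By role the calls under TMM were MYC, 3 of 7 RNA polymerase I genes, 2 of 7 abundant nucleolar proteins, 0 of 6 snoRNP genes, 6 of 13 small subunit genes and 3 of 8 large subunit genes. Among genes of the pathway outside the 42, 8 of 46 small subunit factors were called higher and 0 lower. Of 52 other large subunit factors, 9 were called higher and 1 lower. Of 14 other RNA polymerase I factors and 11 tested snoRNP proteins and assembly factors, 0 were called.

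The smallest adjusted p-values were those of WDR43, with a difference of 0.39 (SE 0.0688, adjusted p = 0.00222 from edgeR), DDX21 with 0.33 (SE 0.0640, adjusted p = 0.00355) and MYC with 0.38 (SE 0.0774, adjusted p = 0.00515). In GFP cells WDR43 stood at 3474, 3196 and 3287 normalized counts with Cyss and at 3286, 3243 and 3678 without. DDX21 stood at 14991, 14288 and 14643 with Cyss and at 14628, 15186 and 16812 without. In GFP cells the groups of both genes thus overlapped, while they were separated in NRF2 cells.

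UTP20, a large scaffold protein of the small subunit processome, showed a difference of 0.30 (SE 0.0610, adjusted p = 0.00531 from edgeR). In GFP cells its normalized counts were 4938, 4749 and 5024 with Cyss, then 4397, 4364 and 4826 without. In NRF2 cells they were 4578, 4495 and 4466 with Cyss and 5153, 5029 and 5210.0 without. The signs of the 2 responses were therefore opposite, with log2FC values of -0.12 (adjusted p = 0.193) and 0.18 (adjusted p = 0.00686). RRP1B, a nucleolar protein that binds preribosomes, showed a difference of 0.23 (SE 0.0587, adjusted p = 0.0228). Its normalized counts in GFP cells were 2531, 2372 and 2423 with Cyss, then 2289.95, 2362 and 2428 without. In NRF2 cells they were 2305, 2335 and 2331 with Cyss, then 2690.25, 2617 and 2570.4 without. Its 3 NRF2 libraries without Cyss were above the other 9.

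The remaining calls were RRS1 (0.32), RRP12 (0.28), POLR1B (0.24), POLR1A (0.23), UTP15 (0.22), NOP14 (0.21), RRN3 (0.20), HEATR1 (0.20), NOLC1 (0.18) and WDR12 (0.17). Of the 15 genes, 14 also passed the adjusted p in NRF2 cells, the exception being WDR12. The interaction contains the response of NRF2 cells from the same libraries, so this overlap is no separate support. MYBBP1A (0.19, adjusted p = 0.1005), BYSL (0.22, adjusted p = 0.101) and LYAR (0.23, adjusted p = 0.187) lay on the other side of the threshold. The lowest value was that of NHP2, at -0.18 (adjusted p = 0.150). The number of calls leaned on single libraries, with 18 higher without NRF2 cells without Cyss replicate 1, 20 higher without GFP cells without Cyss replicate 3 (0.45 for MYC, 0.45 for WDR43 and 0.39 for DDX21), and 7 without GFP cells without Cyss replicate 2 or without NRF2 cells with Cyss replicate 3. The share of all genes called was not counted in these fits, so the counts show no change particular to the members. MYC, WDR43, DDX21, UTP20 and RRP1B passed whichever of the 12 libraries was left out.

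**Figure D3:**
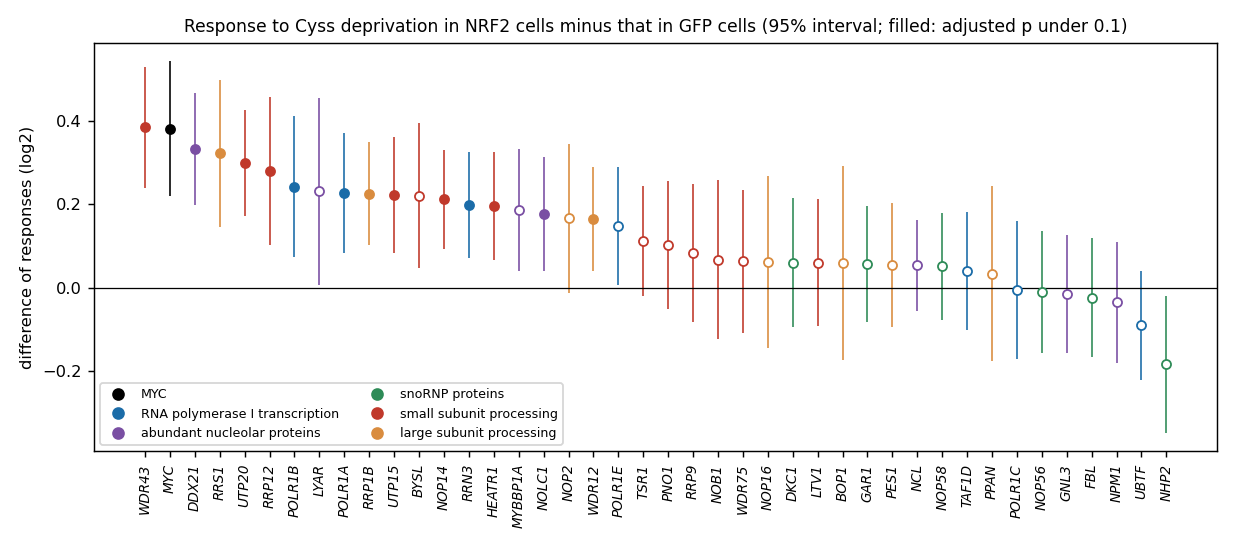
Difference of the responses to Cyss deprivation (log2FC in NRF2 cells minus log2FC in GFP cells, vertical axis) for the 42 genes in falling order, with 95% intervals as bars and colours for the roles. The 15 filled points had an adjusted p under 0.1 and range from 0.39 for WDR43 down to 0.17 for WDR12, and none of the green snoRNP points is filled.

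The effect of NRF2 itself was compared in each medium. These comparisons share libraries with those above, so their values are given side by side and not as separate support. With Cyss, none of the 42 genes was a DEG between NRF2 and GFP cells, beside 1.36% of 17449 genes called higher and 0.201% lower, and DESeq2 also called 0. At an unadjusted p under 0.05, 2 members were higher and 12 lower, beside 10.4 and 8.6% of all genes. Without the threshold on fold, MYC was higher (log2FC 0.13, SE 0.0379, adjusted p = 0.0674 from edgeR), and DDX21 (-0.17, adjusted p = 0.00822) and UTP20 (-0.12, adjusted p = 0.0835) were lower, beside 4.15 and 2.28% of all genes. The MYC counts of 2459, 2544 and 2456 in GFP cells lay below the 2726, 2728 and 2729 of NRF2 cells (exact two-sided permutation p = 0.1), but its adjusted p passed in only 2 of the 6 fits with a library left out, as did that of UTP20. DDX21 passed in all 6, and without GFP cells with Cyss replicate 1 there were 6 lower members. The median of the members was -0.06, against 0.00 for all genes, with 10 above 0 and 32 below.

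Without Cyss, MYC was the only DEG among the 42 genes between NRF2 and GFP cells, and none was lower, beside 5.98% of 17297 genes called higher and 4.09% lower. Its 2773, 3092 and 3372 normalized counts in GFP cells stood against 4257, 4364 and 4572 in NRF2 cells, with a log2FC of 0.50 (SE 0.0656, adjusted p = 0.00054 from edgeR, exact two-sided permutation p = 0.1). Without replicate 3 of the GFP cells it was 0.57, and MYBBP1A (0.33), RRP12 (0.36) and RRS1 (0.35) then became DEGs as well. Without the threshold on fold, 12 members were higher and 2 lower, beside 14 and 14.7% of all genes. The higher ones were MYC, RRP12 (0.28), RRS1 (0.27), MYBBP1A (0.27), WDR43 (0.25), BYSL (0.23), POLR1A (0.23), UTP20 (0.17), DDX21 (0.15), RRP1B (0.14), NOP14 (0.14) and RRN3 (0.12). The lower ones were NHP2 (-0.19, adjusted p = 0.0319) and NPM1 (-0.15, adjusted p = 0.0486). MYBBP1A had 3666, 3794 and 4135 normalized counts in GFP cells and 4899, 4520.5 and 4718 in NRF2 cells, and NHP2 had 1055, 1124 and 1125 against 994, 957 and 975. Neither gene showed overlap between the groups. NPM1 had 9787, 9818 and 10007 in GFP cells and 8325, 9253 and 9290.6 in NRF2 cells, of which the first, from the library that stood apart, lay below the other two. Without GFP cells without Cyss replicate 3, 15 were higher, NPM1 (-0.14, adjusted p = 0.126) and RRN3 (0.13, adjusted p = 0.129) lost their calls, and the 2 lower genes were NHP2 (-0.17) and UBTF (-0.15, adjusted p = 0.0855). Without NRF2 cells without Cyss replicate 1 the 2 lower genes were again NHP2 and UBTF. The count of higher genes was 6 without GFP cells without Cyss replicate 1 or 2, and that of DEGs was 2 (MYC and RRS1) without NRF2 cells without Cyss replicate 1. Shares of all genes were not counted in the fits with a library left out, so the member counts there have no share beside them.

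The median of the members without Cyss was 0.07, against -0.02 for all genes tested, with 28 above 0 and 14 below. By role without Cyss, all 6 snoRNP genes lay below 0, from -0.02 for FBL, at the median of all genes, to -0.19 for NHP2. All 8 large subunit genes lay above 0, from 0.02 for NOP16 to 0.27 for RRS1. Without GFP cells without Cyss replicate 3, 2 of the snoRNP genes, FBL and DKC1, were at 0.01 and 0.01, and without NRF2 cells without Cyss replicate 1, 3 were above 0, whereas the 8 large subunit genes were above 0 in both of these fits. Of the 13 small subunit genes, 10 were above 0, from RRP12 down to WDR75 at -0.07. The RNA polymerase I genes ran from -0.12 for UBTF to 0.23 for POLR1A. For DDX21 the log2FC of NRF2 against GFP cells was -0.17 with Cyss and 0.15 without, the second call being kept in 3 of the 6 fits with a library left out. Of all DEGs in this comparison, 59.4% were higher under TMM and 46.7% with library size only.

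**Figure D4:**
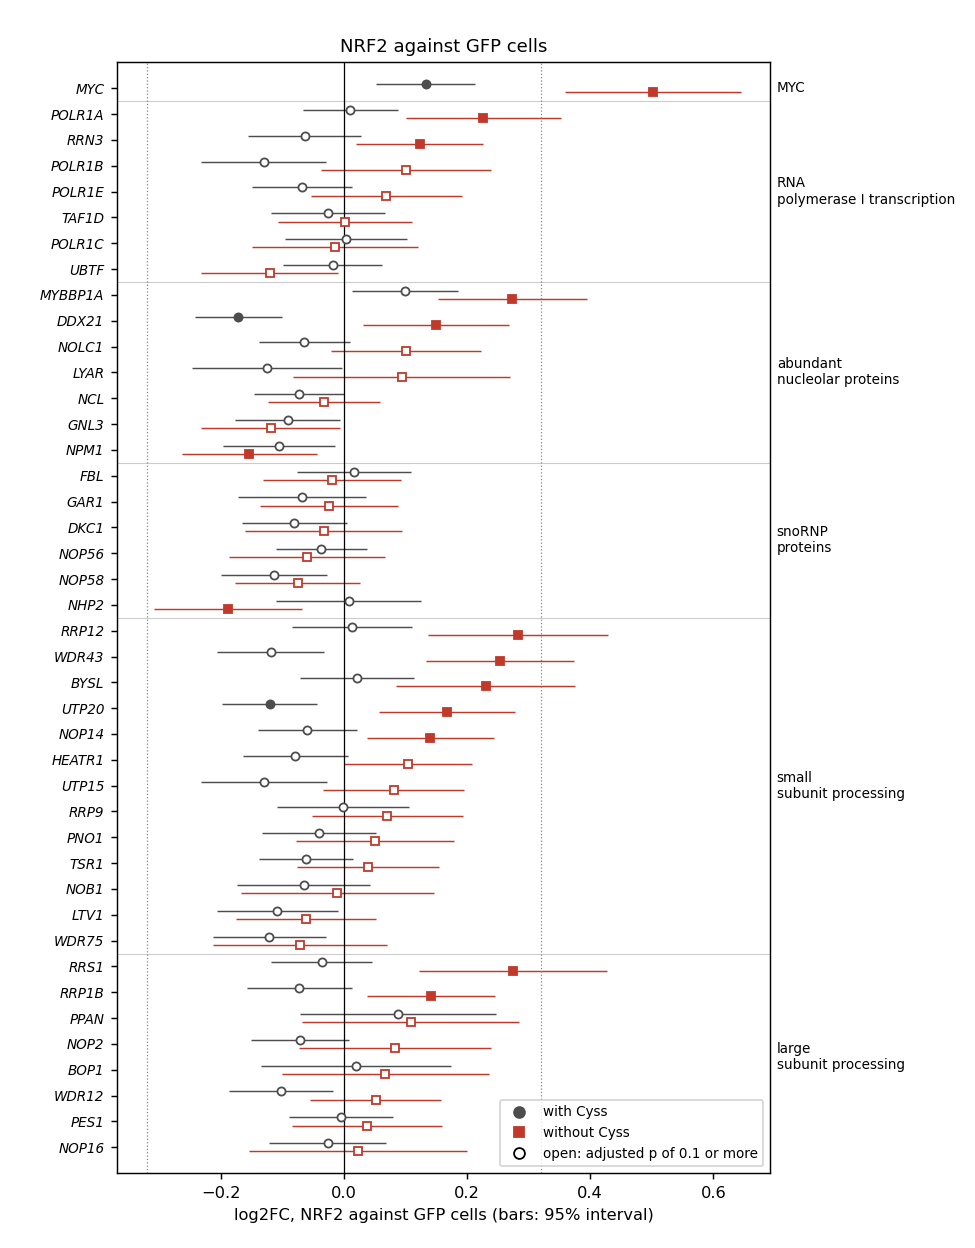
Difference between NRF2 and GFP cells (log2FC, horizontal axis) for the 42 genes with Cyss (grey circles) and without Cyss (red squares), with 95% intervals as bars, grouped by role, and dotted lines at -0.32 and 0.32. With Cyss 3 marks are filled (adjusted p under 0.1) and without Cyss 14, and MYC without Cyss (0.50) is the only filled one beyond the dotted lines.

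Other genes of the pathway were counted from lists of the same kind, to be read against the 15.2% of all genes higher and 13.8% lower at any fold. In NRF2 cells without Cyss, 19 of 46 other small subunit factors were higher at any fold and 0 lower, and 4 were DEGs, among them KRR1 (0.49) and ESF1 (0.41), both needed for processing of the small subunit precursor. Of 52 other large subunit factors, 22 were higher and 1 lower at any fold, and 7 were DEGs, among them EFL1 (0.69), a GTPase that frees the 60S subunit from its last assembly factor, and RSL24D1 (0.55), which was also a DEG in GFP cells (0.53). In the same comparison 2 of 14 other RNA polymerase I factors and 1 of 11 tested snoRNP assembly factors were higher and none was lower. Of 14 exosome genes, which trim rRNA ends, 2 were higher and 1 lower. Of 20 RNA polymerase III genes, which include those for making 5S RNA and tRNA, 7 were higher and none lower, and POLR3A, the largest subunit, was the DEG (0.44).

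In the MYC network, 7 of 16 tested genes were higher and 5 lower at any fold in NRF2 cells without Cyss. MXD1, a partner of MAX that opposes MYC, rose by a log2FC of 0.71, and MXD3, of the same family, fell by 0.54. The difference of the responses was -0.66 for MXD3 (adjusted p = 0.00146 from edgeR). MYC targets outside the nucleolus split evenly, with 6 of 23 higher and 5 lower and a median of -0.01. Among them TFRC (transferrin receptor) and SHMT2 (mitochondrial serine hydroxymethyltransferase) were DEGs in NRF2 cells (0.45 and 0.48) and in GFP cells (0.38 and 0.57). ODC1, the first enzyme of polyamine synthesis, had a difference of responses of 0.60 (adjusted p = 0.00926).

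The promoters of the members were read in RefSeq's sequences on GRCh38.p14, from 250 bases before to 50 bases after the start, for the 34 members in that table. MYC, POLR1E, NOLC1, NOP58, RRP12, BOP1, RRS1 and RRP1B were not used here. The E-box CACGTG, the same on both strands, was found in 11 of the 34 (32.4%), in 7.26% of all 35116 promoters and in 9.86% of 10398 promoters of genes with at least 10 reads in some library. Its share in related lists was 35% of 40 other small subunit factors, 28.3% of 46 other large subunit factors, 33.3% of 15 RNA polymerase III genes and 47.6% of 21 MYC targets outside the nucleolus. In all 11 members it lay within 50 bases of the start, against 38.9% of the 2548 promoters that hold it, a distance chosen after the positions were seen. Positions were not counted in promoters of expressed genes alone or in the related lists, so they cannot be called particular to the members. A core of the antioxidant response element bound by NRF2, TGACNNNGC on either strand, was in 11.8% of members and 13.3% of all promoters. The element TGATGNAA of ATF4, on either strand, was in 0 and 3.62%. The last letters of CACGTG can also be the first of either other motif, and a match is a description and no proof of a site.

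Of the 11 members with the E-box, 8 were higher at any fold in NRF2 cells without Cyss (median log2FC 0.18), against 10 of 23 without it (median 0.10), and 3 of the 11 and 7 of the 23 were called in the interaction. For the 8 members without a promoter sequence here, among them the DEGs MYC, RRP12 and RRS1, the E-box is not known. Of these 8, 6 were higher (median 0.17) and 5 were called in the interaction. These splits were not counted over all genes with and without the E-box, and its part in the members' values was not tested. Shown here are 5 members with the E-box that were higher both in NRF2 cells without Cyss and in NRF2 against GFP cells without Cyss, then the 3 with the E-box that passed in neither, each with 12 bases on both sides of the motif, which stands in capitals.
WDR43: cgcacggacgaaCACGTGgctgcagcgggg
UTP20: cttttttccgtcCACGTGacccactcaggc
NOP14: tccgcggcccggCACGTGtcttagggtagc
MYBBP1A: ggggccggagcaCACGTGtttcgtgtttcg
BYSL: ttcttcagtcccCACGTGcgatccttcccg
FBL: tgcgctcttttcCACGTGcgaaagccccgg
RRP9: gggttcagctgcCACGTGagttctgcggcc
PES1: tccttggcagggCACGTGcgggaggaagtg
The motif starts at base 4 from the start in WDR43 (chr2:28894658-28894687, plus strand), 10 bases before it in UTP20 (chr12:101280083-101280112, plus strand) and at base 16 in NOP14 (chr4:2963374-2963403, minus strand). It starts at base 28 in MYBBP1A (chr17:4555340-4555369, minus strand) and at base 29 in BYSL (chr6:41921515-41921544, plus strand). In the members that did not pass, it starts at base 7 in FBL (chr19:39846356-39846385, minus strand), 5 bases before the start in RRP9 (chr3:51941892-51941921, minus strand) and at base 14 in PES1 (chr22:30591880-30591909, minus strand). In the 8 members shown, the motif lay close to the start in those that passed and in those that did not. Of the latter, PES1 passed in NRF2 cells when replicate 1 without Cyss was left out (log2FC 0.13, adjusted p = 0.0457 from edgeR).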

How the data were processed

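Raw counts were deposited for 12 libraries, 1 value per gene symbol. To make them the authors aligned reads with TopHat2 2.1.0 on hg19 and ran HTSeq 0.11.2 on exons without regard to strand. The annotation they counted on is not given in the sources used here. Genes named as rRNA (523) were removed, as in the study's methods. For each of 4 comparisons the 6 libraries concerned were scaled by TMM, genes whose normalized counts averaged 10 or more in either group were kept, scaling was repeated on these, and edgeR 4.0.16 (R 4.3.3, limma 3.58.1) was used for quasi-likelihood tests, adjusted over all genes tested. Calls needed a log2FC beyond 0.32 in size besides an adjusted p under 0.1, the thresholds in the legends of the study, whereas its methods name 0.05, an alternative here. The difference of responses was tested as an interaction over 12 libraries with an adjusted p under 0.1. The study's methods used DESeq2, run here as an alternative (1.42.0). The members and the gene lists were chosen with earlier results of these data known. All 42 members are described by role. In each test, MYC and up to 5 called members per direction with the smallest adjusted p have their values per library given, and up to 2 called genes are named per other list. UBTF, MYBBP1A, NHP2 and NPM1 were added after their values were seen. Exon lengths and overlaps came from GENCODE 44 on GRCh37, and plots from Python 3.11.15 with matplotlib 3.10.9. Total reads on genes were 27334061 to 44734611 per library. Replicates differed by more than sampling noise (chi-square per degree of freedom 2.22 to 13.0). The procedure was tested on simulated data with planted changes larger than those of nearly all members, so that test does not cover changes of their size. Reads that fit more than 1 gene were dropped, and 13 members share over 10% of their exon bases with another gene, so their counts are less certain. Other scalings, filters, fits and thresholds and each library left out in turn were alternatives.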

Additional observations from a re-analysis of the deposited data

Results flagged for a closer look

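The response to Cyss deprivation differed between NRF2 and GFP cells by the interaction test of edgeR (adjusted p under 0.1) for 15 of the 42 genes, which is what singled them out. All 15 were higher, beside 8.97% of all 17674 genes tested called higher and 6.13% lower. The number of calls depended on scaling and on single libraries, as described above. With 3 libraries a group no formal test for outlying libraries was made, and each library was left out in turn instead. The differences, log2FC in NRF2 cells minus log2FC in GFP cells, were 0.39 for WDR43, 0.38 for MYC, 0.33 for DDX21, 0.32 for RRS1 and 0.30 for UTP20. They were 0.28 for RRP12, 0.24 for POLR1B, 0.23 for POLR1A, 0.23 for RRP1B and 0.22 for UTP15. They were 0.21 for NOP14, 0.20 for RRN3, 0.20 for HEATR1, 0.18 for NOLC1 and 0.17 for WDR12. The library of GFP cells without Cyss that stands apart on the first principal component, replicate 3, was the highest of its group for 38 of the 42 genes. Its part in the differences can be read from the fit without it, in which 20 members were called. Neither count was made over all genes.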

How the results depend on the processing

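Replicate numbers are shared between groups. Deviations of same-numbered libraries from their group means had mixed correlations over 13529 genes, from -0.16 to 0.25. Between NRF2 and GFP cells without Cyss, replicate 3 had 0.25, against at most 0.08 with other numbers. Replicate 2 had -0.16 there, against up to 0.20 with other numbers. The numbers were not taken as pairs. With the replicate block, members lower at any fold numbered 1 between NRF2 and GFP cells with Cyss and 4 without Cyss, against 2 in each, and 18 members were called in the interaction. Shares of all genes at any fold were not counted with this block, in the other fits below or at the stricter adjusted p. The exception is the interaction under other scalings, for which they are given below. No alternative turned the direction of a called member or of the medians over members under another scaling, but library size only left 33 instead of 37 members above 0 in NRF2 cells and 32 instead of 35 in the interaction, and turned the majority of all calls from higher to lower in both. The fit without GFP cells without Cyss replicate 3 turned the median of the members in GFP cells from 0.03 to -0.01. In GFP cells, members higher at any fold numbered 2 with library size only, upper quartile, DESeq2's Wald test, no filter or all 12 libraries in the fit, and 1 was lower with no filter. Without the fold threshold, the counts of members called higher and lower came to 1 and 0 (GFP cells), 24 and 1 (NRF2 cells), 1 and 2 for NRF2 against GFP cells with Cyss and 12 and 2 without, and MYC then passed in GFP cells (0.31) and with Cyss (0.13). Members lower at any fold in NRF2 cells numbered 2 with library size only. For NRF2 against GFP cells with Cyss, members lower at any fold numbered 1 with library size only, upper quartile, all 12 libraries or adjusted p under 0.05, and 6 with no filter, and higher members numbered 0 with no filter, all 12 libraries or adjusted p under 0.05. Without Cyss, lower members numbered 4 with library size only or upper quartile. In the interaction, 8 were higher and 1 lower with library size only, beside 1124 and 1981 of all genes. With upper quartile 1 was lower, beside 1189 of all genes called higher and 1746 lower. Leaving out single libraries gave the following ranges, for which shares of all genes were not counted. In GFP cells 0 to 1 members were called higher, 1 to 2 were higher and 0 to 1 lower at any fold, and the log2FC of MYC was 0.24 to 0.38. With Cyss, 0 to 2 were higher and 1 to 6 lower at any fold. Without Cyss, 1 to 4 were called higher, and 6 to 15 were higher and 0 to 3 lower at any fold. In the interaction 7 to 20 were higher and 0 to 1 lower. The cause of these shifts was not tested. With 3 libraries a group, changes of single members under about the fold threshold were often lost with a single library.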
